A study of Homo sapiens and Mus musculus with 57 samples.

Results

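The 10 genes described here belong to the BCL2 family, and they were taken by symbol from the 30373 rows of the human gene tables: the anti-apoptotic genes MCL1, BCL2L1, BCL2 and BCL2A1, the effectors BAX and BAK1, and the BH3-only genes BMF, BBC3, PMAIP1 and BCL2L11. All 10 symbols were found, each as 1 row. RNA-seq libraries from poly(A) RNA were made from human tumour lines kept for 16 h with TAK-981 at 1 uM, with ML-792 at 1 uM or with DMSO, the solvent control. TAK-981 and ML-792 are small-molecule inhibitors of the SUMO-activating enzyme SAE1-UBA2, which starts the attachment of the small protein SUMO to other proteins. The 33 human libraries fall into 11 groups of 3: THP-1 with TAK-981 or DMSO, and HCT116, Colo205 and MDA-MB-231 each with TAK-981, ML-792 or DMSO. The 24 libraries of mouse lines in the series were not used here.

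THP-1 is an acute monocytic leukaemia line grown in suspension, HCT116 and Colo205 are colorectal carcinoma lines, and MDA-MB-231 is a breast carcinoma line with mesenchymal features. No group carried an engineered allele, each line stands for 1 tumour, and the labels describe wells seeded in triplets without saying that these were separate cultures. p-values therefore measure only the spread between these wells, which may be technical. Most lineage marker sums fitted the labels. All 15 myeloid markers had counts in THP-1, summing to 4900 to 5440 CPM, counts scaled to library size, with TAK-981 and 9720 to 10200 CPM with DMSO. The 12 epithelial markers summed to 3620 to 4460 CPM in HCT116 and 7990 to 9800 CPM in Colo205, against 2.77 to 4.48 CPM in THP-1. The 11 mesenchymal markers summed to 4760 to 5590 CPM in MDA-MB-231, whose epithelial markers summed to 1250 to 1680 CPM. The myeloid markers also summed to 1510 to 1800 CPM in Colo205, where only 4 of the 15 passed the count filter. The mesenchymal markers summed to 417 to 461 CPM in THP-1 and 265 to 332 CPM in HCT116. B cell and T cell markers summed to at most 6.75 CPM in any library.

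Library totals ran from 17336368 to 25807864 expected counts. Mitochondrially encoded transcripts held 15.5 ± 1.75% of the counts of THP-1 with TAK-981 and 7.38 ± 0.215% with DMSO (SD, n = 3 each), and their share was between 3.89 and 8.15% in the means of the other 9 groups. This share and the marker sum moved with treatment in THP-1, and their part in the THP-1 results below was not tested.

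BCL2 family proteins set whether the mitochondrial outer membrane stays sealed. BAX and BAK1 encode the proteins that open pores in it and release cytochrome c. MCL1, BCL2L1 (the gene of BCL-XL), BCL2 and BCL2A1 (the gene of BFL-1) encode proteins that hold BAX and BAK in check. The BH3-only genes BMF, BBC3 (PUMA), PMAIP1 (NOXA) and BCL2L11 (BIM) encode short proteins that bind the anti-apoptotic ones or trigger the effectors. Transcription is among the ways in which their amount is set, and protein was not measured here. BCL2L11 is a known target of FOXO factors, and PMAIP1 of ATF4.

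Promoters of BMF, BBC3 and BCL2L11 are shown because these BH3-only genes rose with an inhibitor in at least 1 line. PMAIP1 rose in more comparisons than these, and its window is not printed here. The windows run from 250 bases before to 50 bases after a RefSeq gene start on GRCh38.p14, 5′ to 3′ on the strand of the gene. Capitals mark, on either strand, 1 match each: the FOXO site GTAAACA, the E-box CACGTG or the cAMP response element half-site TGACG. The build used for the deposited tables is not given in the sources used here.
BMF promoter, chr15:40108830-40109129 (- strand): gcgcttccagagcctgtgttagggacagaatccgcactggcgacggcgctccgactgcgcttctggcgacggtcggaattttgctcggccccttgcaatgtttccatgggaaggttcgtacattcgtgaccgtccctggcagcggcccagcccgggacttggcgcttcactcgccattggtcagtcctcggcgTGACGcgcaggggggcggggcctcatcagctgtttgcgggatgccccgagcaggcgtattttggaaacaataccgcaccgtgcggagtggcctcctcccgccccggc
BBC3 promoter, chr19:47232618-47232917 (- strand): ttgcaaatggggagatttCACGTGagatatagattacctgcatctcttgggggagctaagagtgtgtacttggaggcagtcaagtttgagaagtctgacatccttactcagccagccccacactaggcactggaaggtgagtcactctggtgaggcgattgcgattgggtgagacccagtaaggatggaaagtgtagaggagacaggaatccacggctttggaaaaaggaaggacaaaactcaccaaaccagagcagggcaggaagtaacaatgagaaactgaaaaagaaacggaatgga
BCL2L11 promoter, chr2:111120664-111120963 (+ strand): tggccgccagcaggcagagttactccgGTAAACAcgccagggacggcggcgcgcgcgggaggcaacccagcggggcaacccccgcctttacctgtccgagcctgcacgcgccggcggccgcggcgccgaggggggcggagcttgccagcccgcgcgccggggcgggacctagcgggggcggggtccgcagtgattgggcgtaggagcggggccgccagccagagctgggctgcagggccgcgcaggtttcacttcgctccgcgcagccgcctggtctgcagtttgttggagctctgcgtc

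The capitals are TGACG in BMF, the E-box in BBC3 and the FOXO site in BCL2L11, and the PMAIP1 window also held 1 TGACG. Of all 35116 RefSeq promoter windows of this length, 24.6% held TGACG, 7.26% the E-box and 3.42% the FOXO site on either strand. The GC box GGGCGG, present in 45% of windows, was found 4 times in PMAIP1, 3 times in BCL2L11 and 2 times in BMF. The AP-1 site TGANTCA (7.71% of windows) was found 1 time in BBC3, and 2 matches to the interferon-stimulated response element core (3.57% of windows) overlapped each other in BBC3. An NF-kB site (11.3% of windows) was found 1 time in BMF. The other matches in the windows of these 4 genes did not overlap. The C/EBP-ATF composite site TGATGNAAN (3.61% of windows) had 0 matches in them. Of the 10 genes, 9 had at least 1 window in the RefSeq table, and MCL1 was the other. A second BMF window, at chr15:40106917-40107216, held 0 of the 9 motifs searched.

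In the DMSO libraries, BCL2 and BCL2L1 stood far apart between THP-1 and the carcinoma lines. Levels between genes are compared here in the FPKM values deposited by the authors, which are scaled by gene length, and values are means ± SD over 3 DMSO libraries. BCL2 stood at 17.8 ± 0.251 FPKM in THP-1, against 0.768 ± 0.0462 in HCT116, 0.278 ± 0.0646 in Colo205 and 1.75 ± 0.155 in MDA-MB-231. The FPKM contrast of BCL2 also holds a difference in the gene length behind the values, given with the implied lengths: by counts, without length scaling, the log2 difference of THP-1 over Colo205 was 8.35 ± 0.129 (326-fold, edgeR adjusted p = 1.16e-22). The size of that fold rests on 5, 12 and 6 rounded BCL2 counts in the Colo205 DMSO libraries. BCL2L1 ran the other way, with 9.24 ± 0.552 FPKM in THP-1, against 107 ± 5.66 in HCT116, 76.9 ± 1.64 in Colo205 and 186 ± 0.443 in MDA-MB-231. The libraries of THP-1 did not overlap with those of any carcinoma line in either gene. MCL1 stood at 107 ± 1.18 FPKM in THP-1, 52.2 ± 0.686 in HCT116, 55.6 ± 3.78 in Colo205 and 94.4 ± 4.8 in MDA-MB-231. MCL1 thus held 79.8 ± 0.234% of the summed FPKM of the 4 anti-apoptotic genes in THP-1, whereas BCL2L1 held the larger share in HCT116 (66.9 ± 1.49%), Colo205 (57.9 ± 1.13%) and MDA-MB-231 (65.9 ± 1.13%). BCL2A1 was nearly silent: its rounded counts in DMSO libraries were 1, 2 and 4 in THP-1, 0, 1 and 0 in HCT116, 0, 0 and 1 in Colo205 and 0 in all 3 libraries of MDA-MB-231.

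Among the effectors, BAX had 97.6 ± 6.67 FPKM in THP-1, 53.7 ± 3.1 in HCT116, 67.4 ± 4.29 in Colo205 and 97.1 ± 1.93 in MDA-MB-231. BAK1 was lower than BAX in every line, with 18.7 ± 0.886 FPKM in THP-1, 9.92 ± 0.592 in HCT116, 7.47 ± 0.754 in Colo205 and 30.5 ± 0.403 in MDA-MB-231. Of the BH3-only genes, PMAIP1 was the most abundant in every line, from 26.5 ± 2.24 FPKM in THP-1 through 42.9 ± 1.04 in HCT116 and 43.5 ± 0.996 in Colo205 to 68.6 ± 2.41 in MDA-MB-231. BCL2L11 lay between 4.71 ± 0.329 FPKM in HCT116 and 10 ± 0.213 FPKM in Colo205, and BBC3 between 2.54 ± 0.642 FPKM in MDA-MB-231 and 11.5 ± 1.21 FPKM in HCT116. BMF was the lowest BH3-only gene in every line, at 1.27 ± 0.0999 FPKM in THP-1, 0.267 ± 0.0196 in HCT116, 1.23 ± 0.111 in Colo205 and 0.552 ± 0.0759 in MDA-MB-231.

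**Figure D1:**
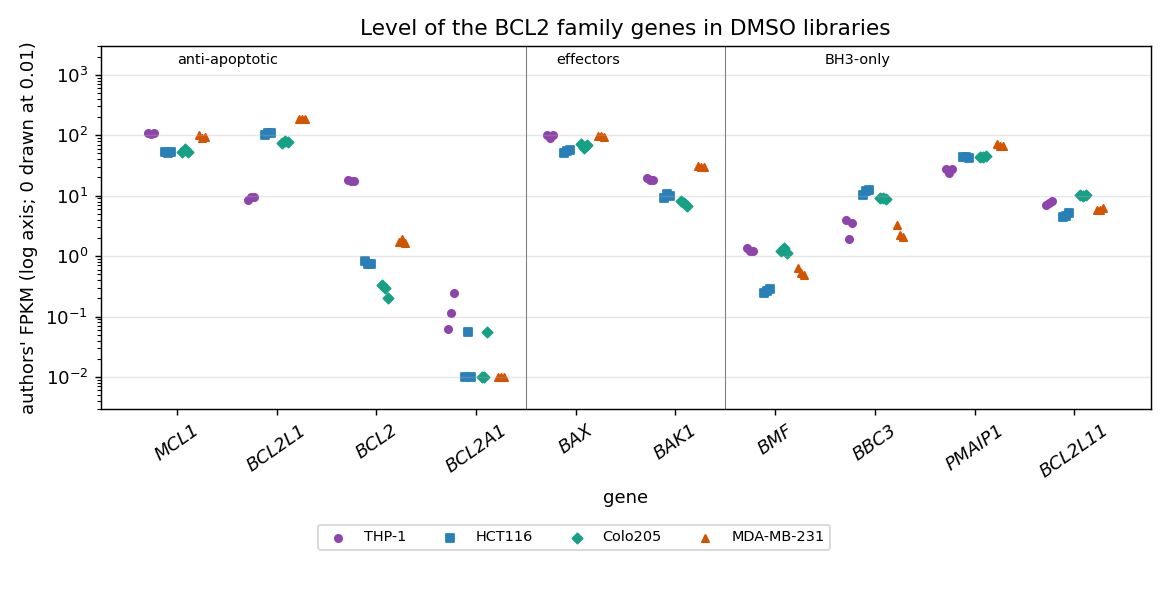
FPKM (log axis) of the 10 genes in each DMSO library, with 1 point per library, 3 per line, and values of 0 drawn at 0.01. BCL2 stands at 17.8 FPKM in THP-1 and at 0.278 to 1.75 FPKM in the carcinoma lines, and BCL2L1 at 9.24 FPKM in THP-1 and at 76.9 to 186 FPKM in the carcinoma lines.

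Differences between lines in DMSO were tested in edgeR over all 16782 genes that passed the count filter, which left out BCL2A1. Over the 6 pairs of lines, 50 of the 54 member comparisons had a Benjamini-Hochberg adjusted p under 0.05, on a background of 78.7 to 86% of all genes, so the lines differed in most genes of any kind. By pair, 9 of 9 members differed between THP-1 and HCT116 (84.6% of all genes), 8 of 9 between THP-1 and Colo205 (86%), 7 of 9 between THP-1 and MDA-MB-231 (84.8%), 8 of 9 between HCT116 and Colo205 (79.9%), 9 of 9 between HCT116 and MDA-MB-231 (78.7%) and 9 of 9 between Colo205 and MDA-MB-231 (81.5%). The 4 neighbours that did not differ beyond their spread were BMF in THP-1 and Colo205 (log2 difference 0.11, 95% interval -0.18 to 0.40), BAX in THP-1 and MDA-MB-231 (0.087, -0.051 to 0.23), BBC3 in THP-1 and MDA-MB-231 (0.20, -0.16 to 0.56) and BBC3 in HCT116 and Colo205 (0.19, -0.078 to 0.46). MCL1 in THP-1 and MDA-MB-231 (0.12, adjusted p = 0.04) and PMAIP1 in HCT116 and Colo205 (-0.13, adjusted p = 0.0489) passed narrowly, and neither call held without the count filter (adjusted p = 0.119 and 0.0577).

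With the inhibitors, most of the 36 calls among the 10 genes were rises of PMAIP1 (7), BCL2L11 (5), BMF (5) and BBC3 (3). The other BH3-only genes BIK, BID, BAD and HRK, outside the 10, did not rise in any comparison where they were tested, though many of their changes were not called. Some of their values are given with the other family genes. In each line, every gene was tested for inhibitor over DMSO with edgeR's quasi-likelihood F-test, log2 fold changes are given ± standard error, and a gene is said to rise or fall where its Benjamini-Hochberg adjusted p over all genes tested in that line was under 0.05. With TAK-981 in THP-1, 7 members rose and 2 fell of 10 tested, in a line where 69.4% of 14526 genes were called (35.5% rose, 33.9% fell). One of the 7 was BCL2A1, which entered the test only through its TAK-981 libraries, so its rise is no support for the count. With TAK-981 in HCT116, 2 rose and 1 fell of 9 tested (14.4% of 14563 genes called: 7.66% rose, 6.73% fell), and with ML-792 in HCT116 2 rose and 0 fell of 9 (11.3% called: 5.99% rose, 5.27% fell). With TAK-981 in Colo205, 3 rose and 2 fell of 8 tested (35.9% of 14152 genes called: 17.9% rose, 18% fell), and ML-792 gave the same counts there (41.8% called: 20.9% rose, 20.8% fell). With TAK-981 in MDA-MB-231, 5 rose and 2 fell of 9 tested (20.2% of 13976 genes called: 10.6% rose, 9.52% fell), and with ML-792 4 rose and 1 fell (22.6% called: 11.6% rose, 11% fell). Members left out by the count filter were BCL2A1 in the 3 carcinoma lines and BCL2 in Colo205. The 2 inhibitor comparisons of a line share their DMSO libraries.

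**Figure D2:**
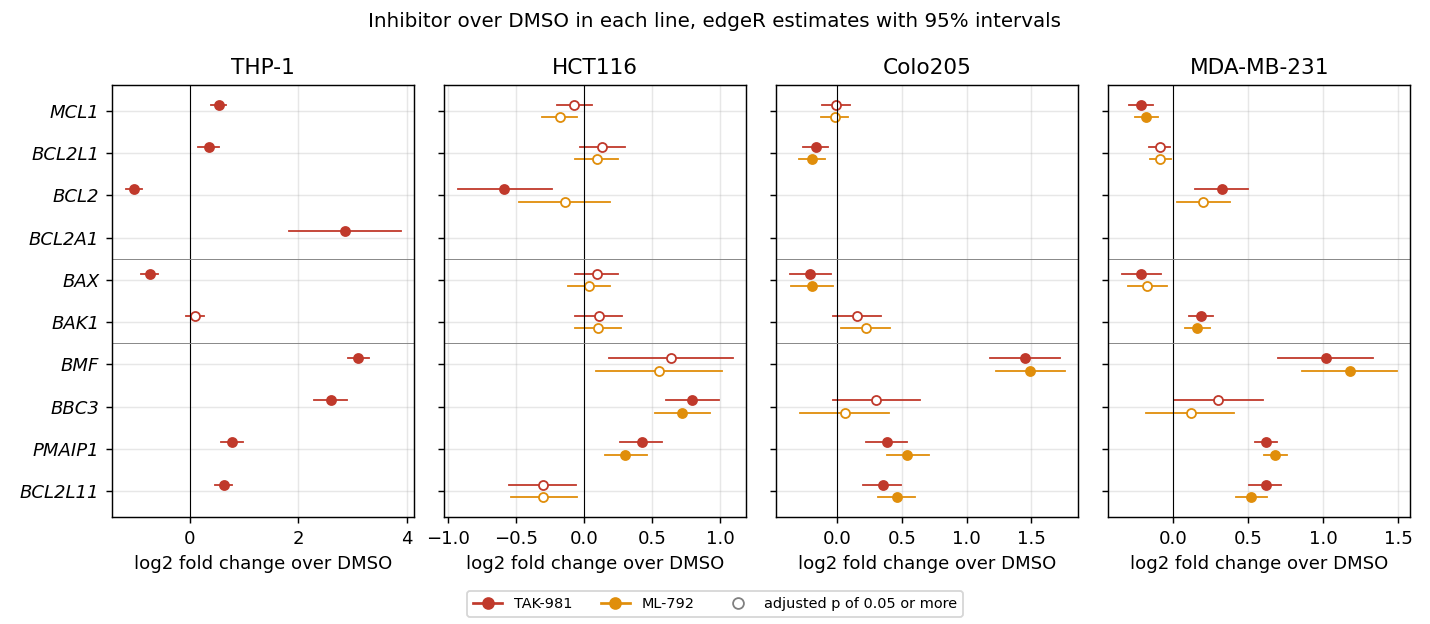
log2 fold change of inhibitor over DMSO for each gene and line, with 95% intervals; filled points had an adjusted p under 0.05, and the 4 panels have different horizontal scales. BMF stands at 3.11 in THP-1 and PMAIP1 lies right of 0 with a filled point in all 7 comparisons.

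PMAIP1, the gene of NOXA, which binds MCL1, rose in 7 of 7 comparisons. In MDA-MB-231 it had 197, 193 and 195 CPM with TAK-981 and 202, 203 and 206 CPM with ML-792, against 130, 126 and 124 CPM with DMSO. The inhibitor libraries lay well above the DMSO libraries and close to each other, and the log2 fold changes were 0.62 ± 0.0352 for TAK-981 (adjusted p = 3.92e-09) and 0.68 ± 0.035 for ML-792 (adjusted p = 1.51e-09). In THP-1 it had 107, 80.2 and 89 CPM with TAK-981, against 56, 48.8 and 55.6 CPM with DMSO (0.78 ± 0.0975, adjusted p = 6.22e-06). Colo205 had 104, 101 and 108 CPM with TAK-981 and 109, 107 and 135 CPM with ML-792, against 80.4, 78 and 82 CPM with DMSO. Again no inhibitor library overlapped with DMSO, and the changes were 0.38 ± 0.0752 (adjusted p = 0.0014) and 0.54 ± 0.0751 (adjusted p = 7.34e-05). The smallest rise was with ML-792 in HCT116, where PMAIP1 had 113, 98.8 and 99.5 CPM with TAK-981 (0.42 ± 0.0729, adjusted p = 0.00194) and 91.4, 97.3 and 98.9 CPM with ML-792 (0.30 ± 0.0731, adjusted p = 0.0166), against 80.5, 78.5 and 74.4 CPM with DMSO. The ML-792 call in HCT116 did not hold in 4 of 14 alternatives, each of which left out 1 library (adjusted p over all alternatives 0.00238 to 0.0812): without DMSO replicate 2 (0.31, adjusted p = 0.0584), DMSO replicate 3 (0.27, 0.0699), ML-792 replicate 2 (0.29, 0.0707) or ML-792 replicate 3 (0.28, 0.0812).

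BMF, whose protein is held by the dynein light chain DLC2 (DYNLL2) until released and then binds BCL2-type proteins, had the largest fold changes of the family in THP-1, Colo205 and MDA-MB-231. In THP-1 it had 51.7, 55.8 and 54.3 CPM with TAK-981, against 6.81, 6.07 and 5.82 CPM with DMSO, which is 8.64-fold higher (log2 fold change 3.11 ± 0.0912, adjusted p = 2.09e-11). Colo205 had 15.5, 14.4 and 17.1 CPM with TAK-981 and 18.2, 13.5 and 16.9 CPM with ML-792, against 5.79, 6.13 and 5.26 CPM with DMSO. There the inhibitor groups overlapped with each other and not with DMSO (1.45 ± 0.124, adjusted p = 1.05e-06 for TAK-981; 1.49 ± 0.124, adjusted p = 8.16e-07 for ML-792). MDA-MB-231 had 5.73, 4.74 and 4.97 CPM with TAK-981 (1.02 ± 0.15, adjusted p = 0.000139) and 6.53, 5.46 and 5.29 CPM with ML-792 (1.18 ± 0.147, adjusted p = 2.44e-05), against 2.88, 2.48 and 2.3 CPM with DMSO. On the log2(FPKM + 1) scale, which understates changes of low genes, the MDA-MB-231 value for TAK-981 was 0.44. In HCT116 BMF was low, with 2.01, 1.93 and 1.64 CPM with TAK-981 and 1.65, 1.69 and 1.91 CPM with ML-792, against 1.12, 1.21 and 1.25 CPM with DMSO. These HCT116 values rest on 22 to 47 counts a library, and neither comparison passed the test (0.64 ± 0.212, adjusted p = 0.0593 and 0.55 ± 0.215, adjusted p = 0.123).

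BBC3, the gene of PUMA, which binds all anti-apoptotic family proteins, rose in THP-1 and HCT116. THP-1 had 27.5, 29.8 and 30.7 CPM with TAK-981, against 6.1, 3.52 and 4.94 CPM with DMSO, which is 6.05-fold higher (log2 fold change 2.60 ± 0.14, adjusted p = 1.3e-09). HCT116 had 29.2, 26.3 and 24.5 CPM with TAK-981 and 25.3, 25.5 and 25.3 CPM with ML-792, against 13.4, 16.1 and 16.5 CPM with DMSO. Neither inhibitor group overlapped with DMSO there, and the changes were 0.79 ± 0.0927 (adjusted p = 6.7e-05) and 0.72 ± 0.0932 (adjusted p = 0.00018). Colo205 had 14.4, 17.5 and 15 CPM with TAK-981 (0.30 ± 0.156, adjusted p = 0.154) and 9.76, 17.3 and 12 CPM with ML-792 (0.055 ± 0.159, adjusted p = 0.807), against 13.2, 12.9 and 12 CPM with DMSO. The ML-792 libraries of Colo205 ranged from below to above all DMSO libraries. With the replicate number as a block, which the check of pairing allowed in Colo205, the TAK-981 change of 0.30 passed the test (adjusted p = 0.0459; range over 14 alternatives 0.017 to 0.378). MDA-MB-231 had 4.91, 5.54 and 4.87 CPM with TAK-981 and 4.55, 4.14 and 4.87 CPM with ML-792, against 4.87, 3.97 and 3.66 CPM with DMSO. These groups touched or overlapped, and neither change passed the test (0.30 ± 0.139, adjusted p = 0.143 and 0.12 ± 0.14, adjusted p = 0.598). Without DMSO replicate 1, the highest DMSO library, the TAK-981 change in MDA-MB-231 was 0.43 (adjusted p = 0.0497; range over 14 alternatives 0.0497 to 0.394).

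**Figure D3:**
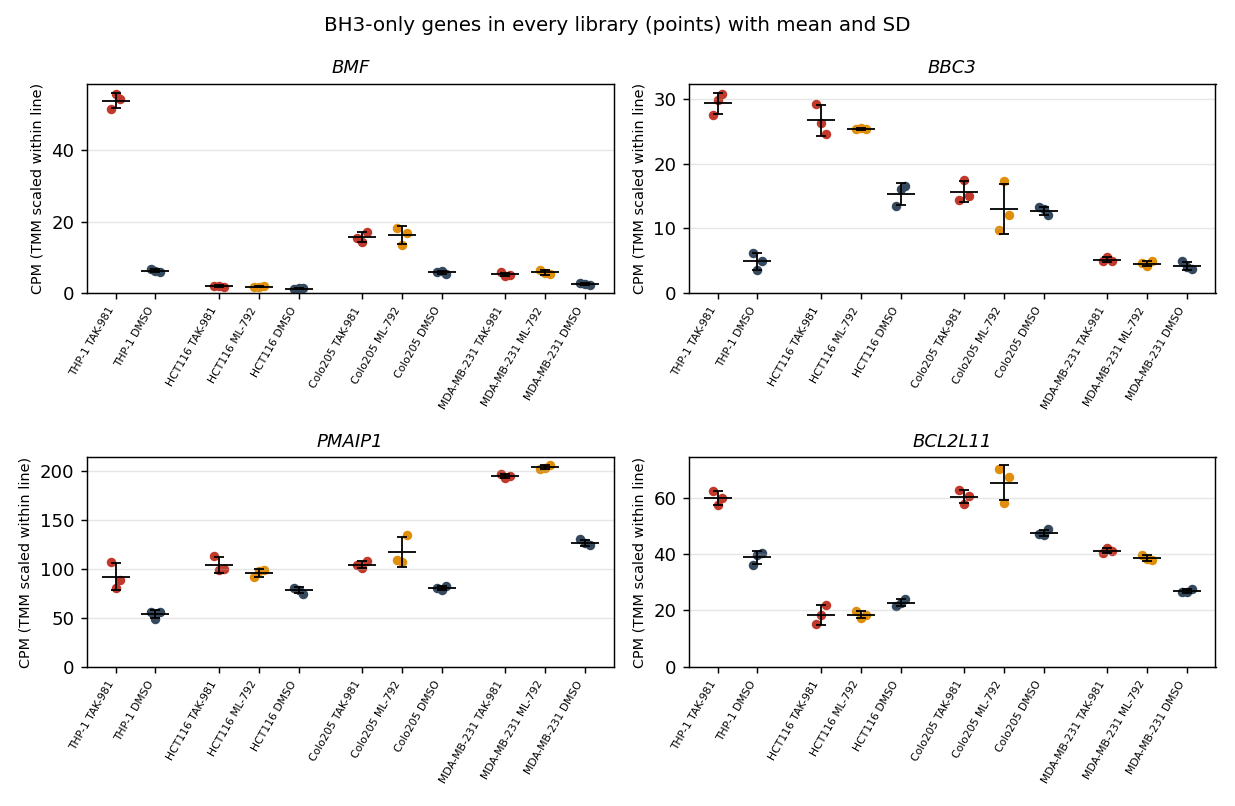
CPM, scaled by TMM within each line, of the 4 BH3-only genes in every library (points), with the mean and SD of each group of 3. BMF reaches 51.7 to 55.8 CPM in THP-1 with TAK-981, against 5.82 to 6.81 CPM with DMSO, and BCL2L11 is lower with the inhibitors than with DMSO on average in HCT116 and higher in the other lines.

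BCL2L11, the gene of BIM, rose in 3 of the 4 lines. THP-1 had 62.7, 57.6 and 59.9 CPM with TAK-981, against 36.3, 39.8 and 40.6 CPM with DMSO (log2 fold change 0.63 ± 0.0728, adjusted p = 3.09e-06). MDA-MB-231 had 40.4, 42.1 and 41.3 CPM with TAK-981 (0.62 ± 0.0502, adjusted p = 2.31e-07) and 39.7, 38.3 and 37.9 CPM with ML-792 (0.52 ± 0.0501, adjusted p = 1.46e-06), against 26.4, 26.5 and 27.8 CPM with DMSO. In both lines the inhibitor libraries lay clear of the DMSO libraries. Colo205 had 62.9, 58 and 60.8 CPM with TAK-981 (0.35 ± 0.0672, adjusted p = 0.00117) and 70.3, 58.4 and 67.6 CPM with ML-792 (0.46 ± 0.0671, adjusted p = 0.000125), against 47.1, 46.8 and 48.9 CPM with DMSO. HCT116 stood apart, with 15, 18.2 and 22.1 CPM with TAK-981 and 19.8, 17.4 and 18.3 CPM with ML-792, against 21.6, 22.6 and 24.1 CPM with DMSO. The TAK-981 libraries of HCT116 overlapped with DMSO and the ML-792 libraries did not, and neither change passed the test (-0.30 ± 0.114, adjusted p = 0.0908 and -0.30 ± 0.115, adjusted p = 0.114). Without TAK-981 replicate 3, the library that overlapped, the change was -0.45 (adjusted p = 0.0153; range over 14 alternatives 0.0153 to 0.237).

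Summed over the 4 BH3-only genes, FPKM was 97.2 to 112 in THP-1 with TAK-981, against 34.8 to 40.7 with DMSO. It was 75.5 to 84.8 with TAK-981 and 72.2 to 75.5 with ML-792 in HCT116, against 58.7 to 59.9 with DMSO. Colo205 had 82.4 to 86.3 with TAK-981 and 84.6 to 101 with ML-792, against 63.4 to 64.8 with DMSO, and MDA-MB-231 had 117 to 120 and 122 to 124, against 75.6 to 81. The sums of inhibitor and DMSO libraries did not overlap in any line. PMAIP1 supplied most of each sum, from 51.2 ± 4.1% in THP-1 with TAK-981 to 90 ± 0.35% in MDA-MB-231 with ML-792. In THP-1 the make-up shifted: BMF and BBC3 held 12.7 ± 1.4% and 22.3 ± 2.07% with TAK-981, against 3.31 ± 0.309% and 8.07 ± 2.23% with DMSO. The anti-apoptotic sum was also higher in THP-1 with TAK-981, at 199 to 211 FPKM against 133 to 136 with DMSO. The effector sum was lower there, at 90.5 to 93.2 against 108 to 122. In Colo205 and MDA-MB-231 the anti-apoptotic sums were lower with both inhibitors than with DMSO, and in HCT116 they overlapped. FPKM leaned upward in THP-1, where the median log2 fold change of all genes was 0.16 on the log2(FPKM + 1) scale.

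Among the anti-apoptotic genes, BCL2 fell in THP-1, where it was highest. It had 65.1, 55.2 and 63 CPM with TAK-981, against 126, 126 and 121 CPM with DMSO, so that every TAK-981 library was far below every DMSO library (log2 fold change -1.02 ± 0.0731, adjusted p = 2.13e-08). In MDA-MB-231 it moved the other way, with 12.2, 11.4 and 12.3 CPM with TAK-981 (0.33 ± 0.0814, adjusted p = 0.00936) and 10.8, 11.3 and 10.8 CPM with ML-792 (0.20 ± 0.0813, adjusted p = 0.0857), against 8.96, 10.1 and 9.57 CPM with DMSO. That rise did not hold in limma on log2(FPKM + 1) (0.19, adjusted p = 0.0644) or on log2(FPKM + 0.1) (0.28, adjusted p = 0.0857). In HCT116 BCL2 had 2.23, 2.63 and 2.42 CPM with TAK-981 and 3.08, 3.33 and 3.52 CPM with ML-792, against 3.87, 3.54 and 3.58 CPM with DMSO. The TAK-981 libraries were below all others there, and the fall of 0.59 ± 0.16 on the log2 scale (adjusted p = 0.0258) rests on 40 to 77 counts a library. It was lost in 8 of 14 alternatives (adjusted p 0.0216 to 0.094), among them DESeq2 (0.0558) and the fits without DMSO replicate 1 (-0.54, 0.0678), DMSO replicate 2 (-0.61, 0.0598), TAK-981 replicate 1 (-0.53, 0.0608) and TAK-981 replicate 3 (-0.58, 0.0554). In Colo205 BCL2 had 1 to 12 counts a library and was not tested against DMSO.

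MCL1, whose short-lived protein is bound by NOXA, rose in THP-1 and fell slightly in MDA-MB-231. THP-1 had 600, 564 and 597 CPM with TAK-981, against 403, 406 and 405 CPM with DMSO (log2 fold change 0.54 ± 0.0624, adjusted p = 3.15e-06). MDA-MB-231 had 311, 317 and 324 CPM with TAK-981 (-0.21 ± 0.0364, adjusted p = 0.000561) and 330, 322 and 323 CPM with ML-792 (-0.18 ± 0.0363, adjusted p = 0.00226), against 386, 358 and 358 CPM with DMSO. Inhibitor and DMSO libraries did not overlap in either line. HCT116 had 183 to 197 CPM with TAK-981 (-0.074 ± 0.0605, adjusted p = 0.443) and 173 to 178 CPM with ML-792 (-0.18 ± 0.0606, adjusted p = 0.069), against 196 to 202 CPM with DMSO. The ML-792 change in HCT116 passed the test in 5 of 14 alternatives (adjusted p 0.0234 to 0.219), DESeq2 (0.0304) among them. In Colo205 the 95% intervals of -0.12 to 0.10 for TAK-981 and -0.13 to 0.085 for ML-792 bound any change of MCL1.

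BCL2L1, the gene of BCL-XL, changed little. THP-1 had 29.7, 30.4 and 34.4 CPM with TAK-981, against 22.9, 26.1 and 25.1 CPM with DMSO (log2 fold change 0.35 ± 0.0866, adjusted p = 0.00241), and 0.59 with libraries scaled by their total count. Colo205 had 161, 174 and 164 CPM with TAK-981 (-0.17 ± 0.0454, adjusted p = 0.00995) and 162, 168 and 160 CPM with ML-792 (-0.20 ± 0.0455, adjusted p = 0.00339), against 185, 189 and 187 CPM with DMSO. No inhibitor library of Colo205 reached the DMSO range, but the TAK-981 call was lost without TAK-981 replicate 1 (-0.15, adjusted p = 0.0536; range over 14 alternatives 0.00152 to 0.0536). MDA-MB-231 had 416 to 448 CPM with TAK-981 and 434 to 436 CPM with ML-792, against 456 to 464 CPM with DMSO. Those changes of -0.086 ± 0.0332 (adjusted p = 0.0797) and -0.082 ± 0.0332 (adjusted p = 0.0893) did not pass the test. With the replicate block, which the check of pairing allowed for TAK-981 and DMSO in MDA-MB-231, the TAK-981 value was -0.087 (adjusted p = 0.0458; range over 14 alternatives 0.0458 to 0.288). In HCT116 the changes were 0.13 ± 0.076 (adjusted p = 0.259) and 0.091 ± 0.076 (adjusted p = 0.491).

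BCL2A1, the gene of BFL-1, rose in THP-1, where it was nearly silent with DMSO. Its rounded counts were 17, 26 and 18 with TAK-981, against 1, 2 and 4 with DMSO. That is 1.03 ± 0.288 CPM with TAK-981 and 0.136 ± 0.0902 CPM with DMSO (SD, n = 3 each; log2 fold change 2.86 ± 0.479, adjusted p = 0.000105; 0.98 on the log2(FPKM + 1) scale). It passed the count filter through the TAK-981 libraries alone. It held 0.613 ± 0.191% of the anti-apoptotic FPKM of THP-1 with TAK-981 and 0.105 ± 0.0701% with DMSO. In the carcinoma lines each library had 0 or 1 count of BCL2A1.

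**Figure D4:**
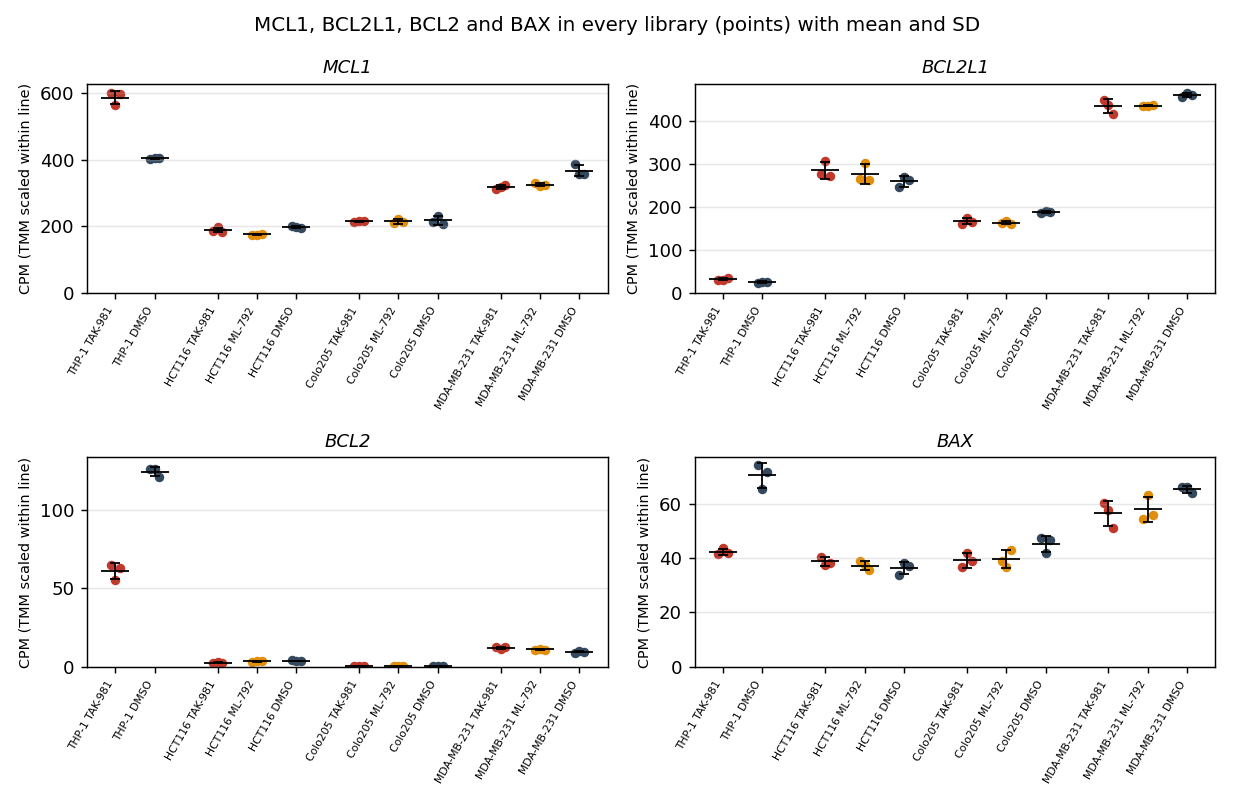
CPM, scaled by TMM within each line, of MCL1, BCL2L1, BCL2 and BAX in every library (points), with the mean and SD of each group of 3. In THP-1, MCL1 is higher with TAK-981 (564 to 600 CPM) than with DMSO (403 to 406 CPM), and BCL2 (55.2 to 65.1 against 121 to 126 CPM) and BAX (41.7 to 43.7 against 65.6 to 74.4 CPM) are lower.

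Of the effectors, BAX fell in 4 of 7 comparisons and rose in 0. THP-1 had 41.7, 43.7 and 42 CPM with TAK-981, against 74.4, 65.6 and 72 CPM with DMSO, a clear gap (log2 fold change -0.74 ± 0.0714, adjusted p = 4.97e-07). The falls in the other lines were small. Colo205 had 36.6, 42 and 39.1 CPM with TAK-981 and 39, 36.6 and 43.2 CPM with ML-792, against 47.5, 41.9 and 46.6 CPM with DMSO, so each inhibitor group reached the lowest DMSO library. The TAK-981 fall in Colo205 (-0.21 ± 0.0743, adjusted p = 0.0409; range over 14 alternatives 0.0183 to 0.169) was lost in limma on FPKM and without DMSO replicate 1 (-0.18, 0.137), DMSO replicate 3 (-0.19, 0.125), TAK-981 replicate 1 (-0.16, 0.169) or TAK-981 replicate 3 (-0.21, 0.1). The ML-792 fall there (-0.20 ± 0.0745, adjusted p = 0.0478; range 0.0196 to 0.157) was lost in DESeq2, limma, the fit of these 2 groups alone, and without DMSO replicate 1 (-0.16, 0.151), DMSO replicate 3 (-0.18, 0.138), ML-792 replicate 1 (-0.19, 0.0982) or ML-792 replicate 2 (-0.14, 0.157). MDA-MB-231 had 60.5, 57.9 and 51.3 CPM with TAK-981 and 54.7, 63.4 and 56 CPM with ML-792, against 66.2, 66.2 and 64 CPM with DMSO. All inhibitor libraries lay below DMSO there, with changes of -0.21 ± 0.0626 for TAK-981 (adjusted p = 0.0257; range 0.00447 to 0.135) and -0.17 ± 0.0619 for ML-792 (adjusted p = 0.0587; range 0.0144 to 0.237). The TAK-981 call was lost in limma on FPKM and without DMSO replicate 2 (-0.20, 0.0523) or TAK-981 replicate 3 (-0.15, 0.135), and the ML-792 change passed in 4 of 14 alternatives, one of them without ML-792 replicate 2 (-0.24, 0.0144). In HCT116 the changes were 0.093 ± 0.0738 (adjusted p = 0.427) and 0.035 ± 0.0741 (adjusted p = 0.813).

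BAK1 rose slightly in MDA-MB-231, where it was most abundant. It had 73, 72.2 and 72 CPM with TAK-981 (log2 fold change 0.19 ± 0.0385, adjusted p = 0.00223) and 72.3, 70.3 and 70.8 CPM with ML-792 (0.16 ± 0.0382, adjusted p = 0.0054), against 63.7, 63.4 and 63.4 CPM with DMSO. Inhibitor and DMSO libraries were separate, and each group was very tight. In Colo205 the changes were 0.15 ± 0.088 for TAK-981 (adjusted p = 0.195) and 0.22 ± 0.088 for ML-792 (adjusted p = 0.0603), and the ML-792 value passed with the replicate block (0.22, adjusted p = 0.038; range over 14 alternatives 0.0301 to 0.224) and without DMSO replicate 1 (0.29, 0.0301) or ML-792 replicate 2 (0.25, 0.0489). In THP-1 it had 40.1, 36.9 and 38.1 CPM with TAK-981, against 38, 36.3 and 33.4 CPM with DMSO, overlapping ranges (0.10 ± 0.0762, adjusted p = 0.281). With libraries scaled by total count that value was 0.33 (adjusted p = 0.0012; range over 13 alternatives 0.0012 to 0.89). BAX held 74.8 ± 1.05% of the summed effector FPKM in THP-1 with TAK-981 and 83.9 ± 0.967% with DMSO, and 70.5 ± 1.79% in MDA-MB-231 with TAK-981, 71.6 ± 2.08% with ML-792 and 76.1 ± 0.302% with DMSO. In HCT116 its share was 84.4% in all 3 groups.

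The THP-1 values depend in size on how libraries were scaled. The median log2 fold change of all genes was 0.026 with TMM scaling and 0.26 with total count scaling, and the genes called were 5150 up and 4924 down with TMM and 7027 up and 3326 down with total counts. No member changed direction: BCL2 and BAX were lower with TAK-981 under every scaling, and the 7 genes that rose were higher.

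The response to TAK-981 was then compared between lines as the interaction of treatment with line, over 17363 genes. In a joint test over the 4 lines, 8 of the 10 members differed (57.7% of all genes did), and BAK1 (adjusted p = 0.799) and BCL2A1 (adjusted p = 0.273) did not pass. Of the 6 pairs of lines, THP-1 was above HCT116 in 5 members and below it in 2, with 22.8% of all genes above and 24.4% below (47.2% in all). THP-1 was above Colo205 in 5 and below it in 1 (19.7% and 24% of all genes, 43.7% in all), and above MDA-MB-231 in 4 and below it in 2 (22.4% and 22.8%, 45.2% in all). HCT116 was above Colo205 in 1 and below it in 2 (5.77% and 7.54%, 13.3% in all), and below MDA-MB-231 in 2 and above it in 0 (3.1% and 3.76%, 6.85% in all). Colo205 was above MDA-MB-231 in 1 and below it in 1 (6.83% and 4.37%, 11.2% in all). The BBC3 response was higher in THP-1 than in HCT116 (log2 difference 1.79 ± 0.177, adjusted p = 2.25e-09), Colo205 (2.27 ± 0.181, adjusted p = 3.95e-11) and MDA-MB-231 (2.30 ± 0.207, adjusted p = 4.49e-10). The BMF response was higher in THP-1 by 2.46 ± 0.216, 1.63 ± 0.142 and 2.10 ± 0.165 (adjusted p = 2.28e-10, 2.21e-10 and 2.93e-11), in the same order, and lower in HCT116 than in Colo205 (-0.83 ± 0.211, adjusted p = 0.00863).

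BCL2L11 set HCT116 apart: its response was lower in HCT116 than in Colo205 (-0.66 ± 0.119, adjusted p = 0.000275) and MDA-MB-231 (-0.90 ± 0.121, adjusted p = 1.61e-05), and higher in THP-1 than in HCT116 (0.91 ± 0.12, adjusted p = 3.19e-07). THP-1 and MDA-MB-231 did not differ in it (0.013, 95% interval -0.22 to 0.25). The PMAIP1 response in THP-1 was above that in HCT116 by 0.35 ± 0.107 (adjusted p = 0.00803) and above that in Colo205 by 0.37 ± 0.107 (adjusted p = 0.00542). BCL2 responded in opposite directions in THP-1 and MDA-MB-231 (-1.35 ± 0.115, adjusted p = 1.59e-10), and HCT116 was below MDA-MB-231 (-0.89 ± 0.166, adjusted p = 0.000906). Its difference between THP-1 and HCT116 (-0.46 ± 0.158, adjusted p = 0.0173) was lost with DESeq2 size factors (-0.35, adjusted p = 0.0609; range over 3 alternatives 0.0275 to 0.0913), and that of Colo205 and MDA-MB-231 (-2.13 ± 0.479, adjusted p = 0.00469) rests on the few counts of Colo205.

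The MCL1 response was higher in THP-1 than in HCT116, Colo205 and MDA-MB-231, by 0.59 ± 0.072, 0.52 ± 0.0719 and 0.75 ± 0.0715 (adjusted p = 8.65e-08, 9.01e-07 and 1.22e-09). The BAX response was lower in THP-1 than in the same lines, with differences of -0.85 ± 0.102, -0.56 ± 0.101 and -0.52 ± 0.099 (adjusted p = 7.52e-08, 4.73e-05 and 7.28e-05). For MCL1, Colo205 was also above MDA-MB-231 (0.23 ± 0.0719, adjusted p = 0.0337; range over 3 alternatives 0.00718 to 0.08), a call lost with DESeq2 size factors and without the count filter. The BCL2L1 response was higher in THP-1 than in Colo205 (0.49 ± 0.0944, adjusted p = 9.34e-05) and MDA-MB-231 (0.44 ± 0.0935, adjusted p = 0.000303), and in HCT116 than in Colo205 (0.29 ± 0.0848, adjusted p = 0.0212). BAK1 differed between lines by at most 0.093 in size, within 95% intervals from -0.30 to 0.21.

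TAK-981 and ML-792 were given at the same dose and time in 3 lines, and 26 member comparisons were made between them. In HCT116 0 of 9 members differed (0.0481% of all genes did), in Colo205 0 of 8 (0.00707%) and in MDA-MB-231 0 of 9 (0.0215%: 0.0143% higher and 0.00716% lower with TAK-981). Over all genes, an unadjusted p under 0.05 was found for 1902 genes in HCT116, 1743 in Colo205 and 852 in MDA-MB-231, and DESeq2 called 108, 26 and 9 genes. These tests bound the differences without showing that the compounds act alike. For PMAIP1 the log2 ratio of TAK-981 over ML-792 was 0.11 (95% interval -0.041 to 0.27) in HCT116, -0.16 (-0.32 to -0.0037) in Colo205 and -0.063 (-0.14 to 0.01) in MDA-MB-231. For BMF it was 0.09 (-0.35 to 0.53), -0.041 (-0.28 to 0.20) and -0.16 (-0.45 to 0.12) in the same lines. Intervals were wide for low genes, such as BCL2 in HCT116 (-0.44, -0.79 to -0.094, adjusted p = 0.286), and narrow for BCL2L1 in MDA-MB-231 (-0.0044, -0.075 to 0.066). BBC3 in Colo205 stood at 0.24 (-0.092 to 0.58, adjusted p = 0.532), and at 0.52 without ML-792 replicate 2, its highest ML-792 library (adjusted p = 0.0186; range over 11 alternatives 0.0186 to 0.896). With the replicate block in Colo205, 624 genes differed between the compounds, against 1 without it, and 0 members were among them.

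**Figure D5:**
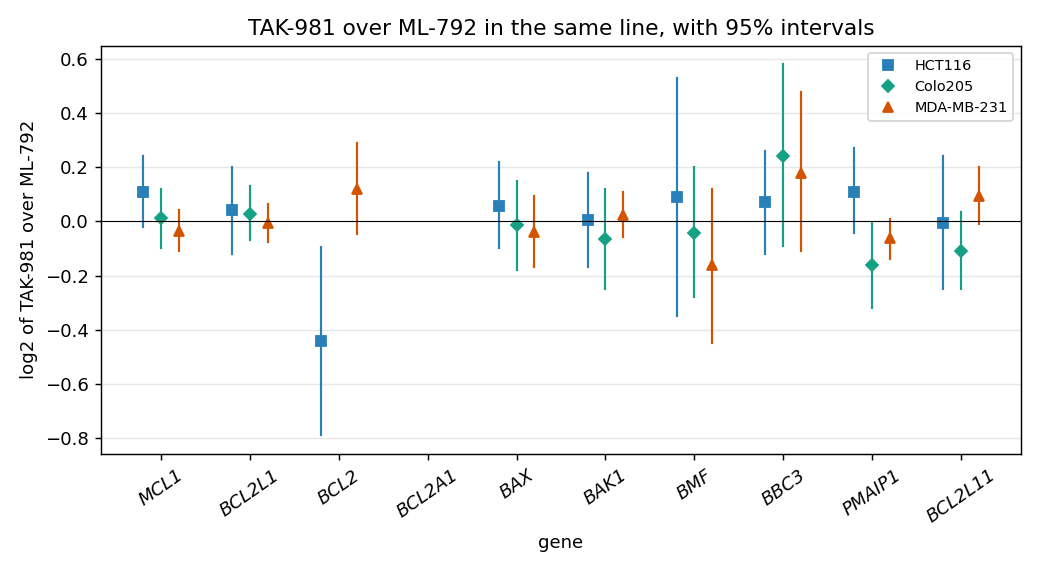
log2 ratio of TAK-981 over ML-792 for each gene in the 3 lines given both, with 95% intervals. No gene had an adjusted p under 0.05, and the estimates run from -0.44 for BCL2 in HCT116 to 0.24 for BBC3 in Colo205.

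Other parts of the apoptosis pathway were counted from lists chosen with earlier results of these data known. Their counts stand against the share of all genes called with TAK-981: 35.5% rose and 33.9% fell in THP-1, 7.66% and 6.73% in HCT116, 17.9% and 18% in Colo205, and 10.6% and 9.52% in MDA-MB-231. Of 10 other measured BCL2 family genes in THP-1, 2 rose and 6 fell with TAK-981 (median log2 fold change -0.28, against 0.026 over all genes), including BCL2L12 at -1.52, the mitophagy receptor gene BNIP3 at -1.47, the BH3-only gene BIK at -1.30 and BID, cut by caspase 8, at -0.68. BAD, a BH3-only gene chosen after its value was seen, was at -0.20 there (adjusted p = 0.0309). The 2 that rose in THP-1 were BOK, at 2.10 ± 0.397, and BCL2L2, at 0.38 ± 0.0716, both outside the rule for naming genes. The BH3-only gene HRK fell in HCT116 with TAK-981 (-1.0 ± 0.311, adjusted p = 0.0447), and BID fell with TAK-981 in Colo205 (-0.29) and MDA-MB-231 (-0.26). BAD, outside the rule for naming genes, was not called with TAK-981 in HCT116 (0.20), Colo205 (0.078) or MDA-MB-231 (-0.018). BNIP3L rose with TAK-981 in Colo205 (0.38). Of the other BCL2 family genes, TAK-981 raised 2 and lowered 1 of 11 in HCT116. It raised 2 and lowered 3 of 10 in Colo205, and raised 1 and lowered 3 of 9 in MDA-MB-231. Of 15 apoptosome and caspase genes in THP-1, 7 rose and 6 fell (median -0.035), counts near the share of all genes, and CYCS, the gene of cytochrome c, fell by 1.09 on the log2 scale. Of 9 death receptor genes, 4 rose and 0 fell (median 0.52), with TNFRSF10B, a TRAIL receptor, at 1.26 and TNFRSF1A at 1.17. Of 7 inhibitor of apoptosis genes in THP-1, 5 rose and 2 fell (median 0.33), and of 13 genes for enzymes and partners that act on BCL2 family proteins after translation, 4 rose and 8 fell (median -0.32). With TAK-981, 1, 1 and 2 of 6 measured inhibitor of apoptosis genes rose and 0 fell in HCT116, Colo205 and MDA-MB-231 in turn. Of the 13 genes acting after translation, 0 were called in HCT116, 3 rose and 1 fell in Colo205, and 3 rose and 0 fell in MDA-MB-231. Of the death receptor genes, 2 rose and 0 fell of 8 in HCT116, 2 rose and 2 fell of 10 in Colo205, and 3 rose and 1 fell of 9 in MDA-MB-231. Of the apoptosome and caspase genes, TAK-981 and ML-792 left 15 and 14 of 15 uncalled in HCT116, 7 and 9 in Colo205, and 14 and 11 in MDA-MB-231. Under TAK-981 and ML-792 in turn, BCL2L15 rose in HCT116 (1.25 and 1.19) and in Colo205 (0.36 and 0.37), and BNIP3 was at -0.62 and -0.56 in MDA-MB-231.

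Of 21 to 22 transcription factors known to act on family genes, TAK-981 raised 13 and lowered 4 in THP-1, 6 and 2 in HCT116, 8 and 4 in Colo205, and 11 and 1 in MDA-MB-231. All genes called made up 69.4%, 14.4%, 35.9% and 20.2% in these lines, in the same order. FOXO1 rose by 2.24 in THP-1, 0.90 in Colo205 and 0.89 in MDA-MB-231, and was at -0.12 in HCT116 (adjusted p = 0.473), a value outside the rule for naming genes and chosen after it was seen. Also outside that rule, FOXO3 rose in THP-1 (1.05) and Colo205 (0.23) but was not called in MDA-MB-231 (0.067) or HCT116 (-0.0017). FOXO4, also outside it, rose in THP-1 (0.93), Colo205 (0.30) and MDA-MB-231 (0.41) and was not called in HCT116 (0.08). ATF4, again outside the rule, rose in HCT116 (0.26) and Colo205 (0.19). It was not called in MDA-MB-231 (0.10) or THP-1. A part of these factors in the changes of the members was not tested. DDIT3, the gene of CHOP, rose by 1.24 in HCT116 and 1.15 in Colo205, and JUN by 0.80 in HCT116, 0.96 in Colo205 and 0.41 in MDA-MB-231. Outside the rule for naming genes, DDIT3 also rose in THP-1 (0.51) and MDA-MB-231 (0.46), and JUN in THP-1 (1.05). The targeted enzyme's own genes fell in THP-1 with TAK-981 (SAE1 by 0.68, UBA2 by 0.41) and in Colo205 with TAK-981 (0.13 and 0.15) and ML-792 (0.19 and 0.16), and neither was called in HCT116 or MDA-MB-231.

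Likeness to the 4 members with a called change of at least 1 was described by Pearson correlation among 13913 genes, as a ranking only, since the libraries of a line share most of their expression. By deviation from the DMSO mean over the 21 inhibitor libraries, BMF was most like TRIB2, SGK1 and NR2F2 (r from 0.983 to 0.985), BBC3 most like TNFRSF12A, PRAME and XRCC1 (0.977 to 0.980), BCL2 most like TMEM33, DCAF12 and DDX6 (0.951 to 0.952) and BCL2A1 most like SLITRK2, OLIG2 and NCF1B (0.991 to 0.995). By level over the 33 libraries, the nearest gene was ZNF91 for BMF (0.963), METRNL for BBC3 (0.941), CHSY1 for BCL2 (0.991) and LINC00599 for BCL2A1 (0.984). BCL2A1 had 0 or 1 count in each carcinoma library and 17 to 26 in THP-1 with TAK-981. Its rankings thus rest on the few counts of those THP-1 libraries.

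Which transcripts were counted can be read in part from the length implied by the deposited count and FPKM of a gene. The widest range was that of BCL2, at 6289 to 6458 bases in THP-1, 3894 to 6658 in HCT116, 5175 to 6606 in MDA-MB-231 and 1881 in the 1 Colo205 library with at least 10 counts. For MCL1 it was 3471 to 3522 bases in the 6 THP-1 libraries and 3819 to 3930 bases in the 27 carcinoma libraries, and for BAK1 1741 to 1827 and 1877 to 2107 bases. For PMAIP1 it was 1850 to 1892 bases in THP-1 and 1827 to 1854 bases in the carcinoma lines. BCL2L1, MCL1, BAK1, BBC3, BCL2L11 and BMF overlap an exon of another gene in the GENCODE annotation. The partner lies on the opposite strand for BCL2L1 (ABALON), BAK1 (GGNBP1), BBC3 (MIR3190), BCL2L11 (MIR4435-2HG) and BMF (BMF-AS1), and on the same strand for MCL1 (ADAMTSL4-AS1) and BBC3 (MIR3191). Whether counting used strand is not given in the sources used here, and without strand the reads of such partners cannot be told apart. GGNBP1, the only partner with a row of its own, had at most 4 counts in any library.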

How the data were processed

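RNA was taken from wells seeded in triplets and made into poly(A) libraries with a TruSeq RNA kit for paired-end sequencing, per the labels' protocols. For each library the authors deposited 2 values a gene, an expected count and its FPKM, per the file headers. Their aligner, counter, build, annotation and strand setting were not given in the sources used here. Expected counts were rounded to whole numbers. FPKM values were used as deposited by the authors, for levels between genes, class sums and limma.

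Each human line was fitted in edgeR 4.0.16 (R 4.3.3) with filterByExpr (minimum 10 counts, 15 in total), TMM factors and quasi-likelihood F-tests; p-values were Benjamini-Hochberg adjusted over all genes tested, with a threshold of 0.05. One fit over the 12 DMSO libraries gave level differences. The line by treatment interaction came from a fit over the DMSO and TAK-981 libraries of the 4 human lines. A fit over all human libraries was an alternative for THP-1. Alternatives were DESeq2 1.42.0 and its size factors, no filter, limma 3.58.1 on log2(FPKM + 1) and log2(FPKM + 0.1), 2 groups only, a replicate block, each library left out, and total count scaling, which was chosen after seeing the data. The steps were tested on simulated data.

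Library totals were 17336368 to 25807864 counts. No 2 libraries were identical, and all 33 replicate pairs differed beyond counting noise (chi-square per degree of freedom 2.17 to 20.1). Replicate numbers were taken to pair libraries where the correlation of same-numbered deviations was over 0.1 in all 3 pairs, which held in Colo205 (0.191 to 0.522) and for TAK-981 and DMSO in MDA-MB-231 (0.277 to 0.471). Named genes were all 10 members, up to 4 called genes of each other list and comparison with the smallest adjusted p, SAE1 and UBA2, and the 3 genes most like each member with a called log2 change of at least 1, among genes with at least 5 CPM in the highest group and skipping clone names. Genes named outside this rule are marked as such. Members and lists were chosen with earlier results of these data known. Some genes of the lists, and 1 list and 1 motif, are not reported here.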

Additional observations from a re-analysis of the deposited data

Results flagged for a closer look

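The response to TAK-981 differed between the 4 human lines for 8 of the 10 genes, by edgeR's joint test of the line by treatment interaction with adjustment over all genes. The adjusted p was 2.69e-12 for BMF, 5.21e-11 for BBC3, 1.03e-09 for BCL2, 4.46e-09 for MCL1, 5.39e-07 for BCL2L11, 6.23e-07 for BAX, 0.000148 for BCL2L1 and 0.011 for PMAIP1. The background is 57.7% of 17363 genes. In THP-1 the mitochondrial share of counts was 15.5 ± 1.75% with TAK-981 and 7.38 ± 0.215% with DMSO (SD, n = 3 each), and its part in these differences was not tested.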

How the results depend on the processing

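Of 1486 values of the 10 genes under alternative settings, 0 reversed a called direction, 1408 kept their direction and side of the threshold, 41 lost it and 37 gained it. Of the 36 calls against DMSO, 29 were kept under every alternative run. The members called with ML-792 in HCT116 numbered 2, 4 with only the 2 groups compared, and 1 to 2 with 1 library left out. With TAK-981 in Colo205 they numbered 5, and 3 (without TAK-981 replicate 1) to 5 with 1 library left out; between TAK-981 and ML-792 in Colo205 they numbered 0, and 0 to 1 (without ML-792 replicate 2). The cause was not tested. Over all genes, calls with TAK-981 in HCT116 numbered 2096, against 1265 with only the 2 groups compared, 1374 without DMSO replicate 1 and 1281 without DMSO replicate 2; with ML-792 there, 1641, against 944 and 1032 without DMSO replicates 2 and 3 and 1064, 768 and 874 without ML-792 replicates 1, 2 and 3. Between the inhibitors in HCT116, 7 genes were called, 108 in DESeq2 and 112 without the filter; in Colo205 1, 26 and 49, and 943 without ML-792 replicate 2; in MDA-MB-231 3, 9 and 28. Leaving out any 1 library otherwise gave 0 to 20 calls in HCT116, 0 in Colo205 and 0 to 2 in MDA-MB-231. The replicate block moved the Colo205 count from 1 to 624 genes, raised BAX with ML-792 in MDA-MB-231 (-0.17) past the threshold (adjusted p = 0.0195; range over 14 alternatives 0.0144 to 0.237), where the numbers do not pair all libraries, and changed no other call against DMSO beyond those given above. In HCT116 the same-numbered correlations were -0.454 to 0.313. No paired analysis was possible because of unshared replicate numbers in THP-1. BCL2 in Colo205 and BCL2A1 are limited by depth, with 0 to 26 counts a library.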
